A study of Mus musculus with 36 samples.

Results

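The genes described here build and run the motile cilia of the airway. They comprise 32 listed genes of ciliated cells and of the axoneme, the microtubule core of the cilium, and 7 further genes added because their symbols consist of Dnah and a number, which makes 39. Of these, 38 had a probe set on the array, out of 18193 genes in all, and 36 had a log2 value over 5 in at least 3 of 36 arrays and were tested. Lrriq1 was not matched to a symbol of the platform. Spag6 and Dnah17 lay near the floor of 2.19 in every array, with highest values of 2.91 and 2.26, and were not tested.

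Multiciliated cells line the conducting airways and beat in waves that carry mucus and trapped particles towards the throat. Their fate depends on the transcription factor Foxj1 together with factors of the RFX family, which switch on a shared set of cilium genes. The axoneme holds a ring of doublet microtubules around a central pair. Dynein motors make the doublets slide, radial spokes and the central apparatus regulate the motors, ruler proteins set their spacing, and intraflagellar transport carries the parts in. In asthma the airway epithelium gains mucus-producing goblet cells, and these lie in the same cell layer.

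Lung RNA of 36 samples, all described as female mice on the C57BL/6 background, was hybridised to 1 single-colour Affymetrix array each. In the ovalbumin (OVA) groups mice were given 3 intraperitoneal injections of 50 µg OVA, each in 0.1 ml of buffered saline (PBS) and given at days 1, 4 and 7, and then 20 µg OVA in 30 µl PBS into the nose once a week for 9 weeks, beginning on day 12; PBS groups received PBS alone at the same times. WT mice are wild type and were not engrafted. KitWsh mice carry the sash mutation of Kit, lack mast cells and were not engrafted. KitWsh_MC, KitWsh_MCifngR and KitWsh_MCigeR mice carry the same Kit mutation and have the engraftment codes MC, MCifngR and MCigeR, which the labels do not spell out; for KitWsh_MCigeR the genotype entry adds FcεRIγ deficiency, and whether this is that of the recipients or of the engrafted cells is not stated there. There were 4 arrays per group after OVA and in WT mice given PBS, and 3 in every other PBS group. Nothing in the labels states that samples within a group came from different mice. The p-values therefore describe the scatter of these samples, which may be technical, with a precision set by the number of arrays.

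KitWsh_MCigeR PBS array 2 stood apart. It had a median correlation of 0.54 with the others, against 0.88 to 0.97 for the other 35, and a beta-actin 3′ minus 5′ signal difference of 8.43 on the log2 scale, against 1.17 to 6.23. This difference grows as RNA is degraded. The array was left out of the values below unless it is named, which leaves 2 arrays in that group. The same difference moved with the kind of mice, from 1.17 to 1.77 in WT and from 1.29 to 2.62 in KitWsh arrays to between 2.21 and 6.23 in KitWsh_MC and between 2.26 and 4.81 in KitWsh_MCifngR arrays. In the other KitWsh_MCigeR arrays it lay between 1.46 and 2.58. The part of this difference in the results was not tested beyond a fit with it as a covariate. A further 3 arrays went against their labels. In WT OVA array 4 Kit read only 6.90, while the remaining 7 WT arrays lay between 9.86 and 11.0, and its 3 Y-linked genes averaged 7.28. KitWsh_MCifngR OVA arrays 2 and 3, labelled female, averaged 7.71 and 7.30 for those genes, against 2.19 to 2.25 in the other 32 arrays of the fit. These 3 arrays were kept, and results that rest on them are also given without them.

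The RFX factors bind an X-box, a palindrome of paired motifs that read GTTGCC or GTTACC. The RefSeq promoter table (GRCm38.p6, 250 bases before to 50 bases after the start) held 33 of the 38 genes. On either strand, GTTGCC occurred in 17 of these 33 genes (51.5%) and in 14.1% of all 27025 genes of the table. GTTACC occurred in 8 (24.2%) and in 8.16% of all genes. Either motif occurred in 21 (63.6%) against 20.8%. The forkhead site TGTTTAC, of the kind that Foxj1 binds, was found in 3 genes (9.09%) against 4.05%. The longer pattern of GTTNCC, then 1 to 3 bases, then GGNAAC, where N is any base, reads alike on both strands and can overlap GTTGCC or GTTACC. It was found in 0 of the 33 genes and in 0.903% of all genes. The pattern fixes the second part as GGNAAC, so it does not count pairs that differ there. In the Dynlrb2 promoter below, for example, GTTGCC is followed by 1 base and then AGCAAC. All matches counted here are a description of the letters and not of binding. The 250 bases before the start are shown for 4 genes, in the sense of the gene, with GTTGCC and GTTACC in capitals. Genes were ranked by the adjusted p of the mean response to OVA given below. After limits on chromosome, number of promoters, neighbouring genes and match position, the first 3 with a match and the first 1 without were taken. They set a promoter with neither beside promoters with 1 and with 2 such matches. Mlf1 (chr3:67373847-67374096, plus strand) holds GTTGCC 105 bases before its start and also TGTTTAC, printed in lower case, and Dynlrb2 (chr8:116504765-116505014, plus strand) holds it 51 bases before. Rfx2 (chr17:56831009-56831258, minus strand) holds GTTACC on the opposite strand, printed as its complement GGTAAC, next to GTTGCC. Dnah11 (chr12:118199044-118199293, minus strand) holds neither.
Mlf1: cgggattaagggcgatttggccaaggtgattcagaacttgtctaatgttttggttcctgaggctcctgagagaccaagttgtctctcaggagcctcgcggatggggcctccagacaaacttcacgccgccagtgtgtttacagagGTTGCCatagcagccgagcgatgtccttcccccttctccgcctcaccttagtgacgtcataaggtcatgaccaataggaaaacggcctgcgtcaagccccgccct
Dynlrb2: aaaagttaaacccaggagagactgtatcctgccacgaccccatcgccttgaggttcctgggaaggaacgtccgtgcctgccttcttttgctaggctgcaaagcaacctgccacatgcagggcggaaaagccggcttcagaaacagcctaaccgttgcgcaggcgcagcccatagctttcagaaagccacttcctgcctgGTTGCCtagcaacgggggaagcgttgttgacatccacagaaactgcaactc
Rfx2: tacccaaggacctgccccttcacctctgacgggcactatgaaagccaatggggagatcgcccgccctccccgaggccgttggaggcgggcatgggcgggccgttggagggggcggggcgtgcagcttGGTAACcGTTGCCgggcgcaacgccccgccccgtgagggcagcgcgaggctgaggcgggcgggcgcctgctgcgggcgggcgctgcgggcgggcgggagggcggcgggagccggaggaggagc
Dnah11: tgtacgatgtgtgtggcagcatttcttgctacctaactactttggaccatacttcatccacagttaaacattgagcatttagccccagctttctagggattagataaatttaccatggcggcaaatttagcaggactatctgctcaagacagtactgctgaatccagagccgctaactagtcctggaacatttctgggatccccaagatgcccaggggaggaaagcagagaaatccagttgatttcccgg

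By their mean over 35 arrays, Tppp3 (12.4), Dynlrb2 (11.9) and Ak7 (9.84) had the highest log2 signal and Spag17 (5.21), Dnah5 (5.28) and Kif27 (5.30) the lowest, but signals of different probe sets are not on a common scale and their order is not one of transcript amounts. Foxj1, the factor that defines the cell type, lay between 8.30 and 9.81 in 32 of 35 arrays. The other 3 were KitWsh_MC OVA array 2 (7.02) and KitWsh_MCifngR OVA arrays 1 (5.40) and 4 (7.67). In bulk lung RNA, fewer ciliated cells and less RNA of these genes per cell cannot be told apart.

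The mean log2 level of the 36 tested genes gives a first view of each lung. It was 7.76 ± 0.08 (SD, n = 4) in WT mice given PBS and 7.54 ± 0.13 (n = 4) after OVA. In KitWsh mice it was 7.72 ± 0.33 (n = 3) with PBS and 7.27 ± 0.15 (n = 4) after OVA. In KitWsh_MC mice it was 7.61 ± 0.03 (n = 3) and 7.05 ± 0.36 (n = 4). The OVA mean was below the PBS mean in each of these kinds, and only in KitWsh_MC mice did the arrays not overlap (7.58 to 7.63 with PBS, 6.63 to 7.51 after OVA). KitWsh_MCifngR mice had 7.99 ± 0.08 (n = 3) with PBS and 7.77 ± 0.14 (n = 4) after OVA. KitWsh_MCigeR mice had 7.59 ± 0.13 (n = 2) with PBS and 7.56 ± 0.12 (n = 4) after OVA. The lowest array of the fit was KitWsh_MC OVA array 2 (6.63), which also had the highest beta-actin difference of the fit (6.23), and the highest was KitWsh_MCifngR PBS array 1 (8.06).

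**Figure D1:**
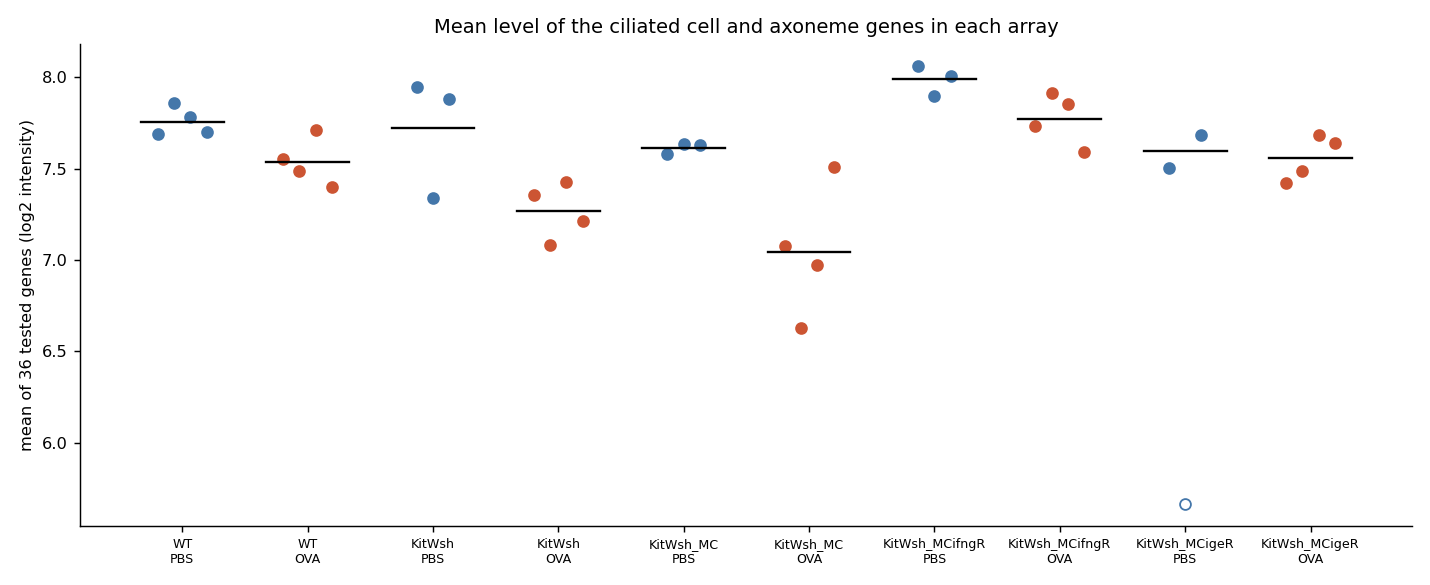
Mean log2 intensity of the 36 tested genes in each array (points; blue PBS, orange OVA), with the group mean as a bar and the left-out KitWsh_MCigeR PBS array 2 as an open circle. OVA means lie below PBS means in every kind of mice, by least in KitWsh_MCigeR mice (7.56 against 7.59). The open circle lies at 5.67, below all other arrays.

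Much of the axoneme was lower after OVA. Averaged over the 5 kinds of mice, each weighted equally, 20 of the 36 tested genes fell and 0 rose at an adjusted p under 0.05 in limma (Benjamini-Hochberg over 11599 genes), where 15.3% of all tested genes fell and 12.2% rose. The median difference was -0.31 on the log2 scale against -0.02 over all tested genes, and 33 of the 36 differences were below 0. Changes were modest in size. Enkur, which lies inside the doublet microtubules, was at 66.2% of its PBS level. With all 36 arrays 7 genes fell, namely Spag17, Kif27, Dnah11, Dnah2, Ccdc39, Rsph4a and Ak7, and without the 3 arrays that went against their labels 20 fell. Leaving out 1 array at a time, between 13 and 24 fell, and 13 of the 20 fell in every such fit; the lowest count came without KitWsh_MCigeR PBS array 3. The list was assembled with earlier results of these data known, so its share of falling genes is a description.

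**Figure D2:**
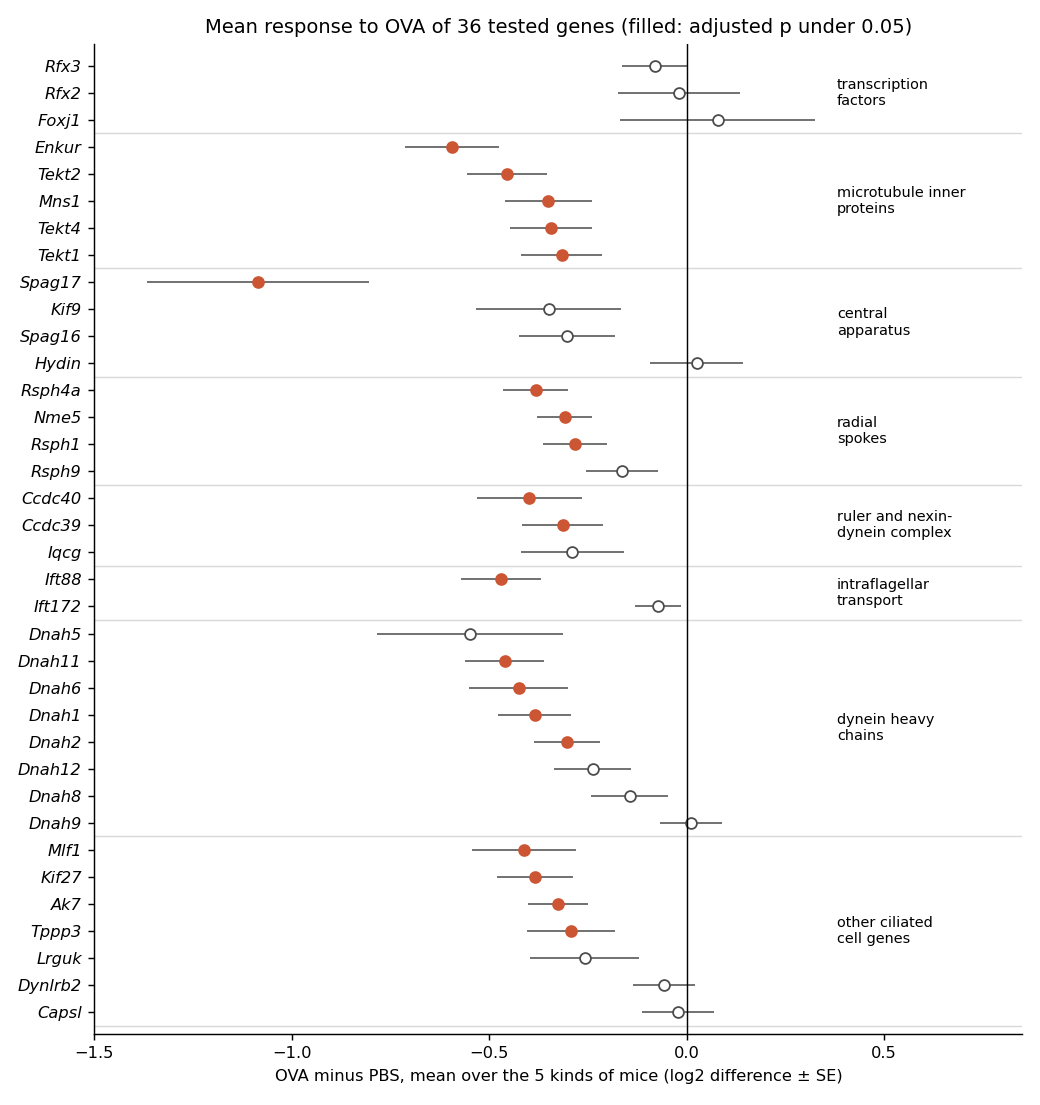
Mean difference between OVA and PBS lungs over the 5 kinds of mice (log2, points) ± standard error (bars) for the 36 tested genes, grouped by role; filled points have an adjusted p under 0.05. The 20 filled points all lie left of 0, and the 3 transcription factors lie near 0.

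None of the 3 transcription factors was called. The log2 difference of Foxj1 was 0.08 ± 0.25 (standard error), with an adjusted p of 0.846, that of Rfx2 was -0.02 ± 0.15 and that of Rfx3 was -0.08 ± 0.08. The error of Foxj1 is wide, since its arrays spread after OVA. In KitWsh_MCifngR mice Foxj1 read 5.40, 9.55, 8.98 and 7.67 in OVA arrays 1 to 4, against 8.41, 8.82 and 9.13 with PBS. The pair of high OVA values belongs to the arrays 2 and 3 that went against their labels, and without the 3 such arrays Foxj1 fell in KitWsh_MCifngR mice (log2 difference -2.25 ± 0.47, adjusted p = 0.0115). With them the difference was -0.89 ± 0.55 (adjusted p = 0.540). The fit without them rests on OVA arrays 1 and 4 of these mice. Their 3′ minus 5′ differences for GAPDH were 7.51 and 5.69, against 1.28 and 2.25 in OVA arrays 2 and 3. KitWsh_MC OVA array 2, where Foxj1 also read low, had 6.77. The part of this RNA measure in the fall was not tested. In WT mice Foxj1 was 8.30, 8.47, 8.44 and 8.92 with PBS and 9.48, 9.28, 9.52 and 8.69 after OVA, 3 OVA arrays being above every PBS array. The OVA array inside the PBS range is array 4, which went against its label. With it the difference of 0.71 ± 0.51 did not pass (adjusted p = 0.371). OVA arrays 1 to 3 read 9.28 to 9.52, without overlap with PBS. In the fit without the 3 arrays against their labels Foxj1 was not called in WT mice.

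Proteins of the microtubule lumen, which stabilise the doublets from within, made up 5 of the tested genes. All 5 fell in the mean response, and they were Enkur, the tektins Tekt1, Tekt2 and Tekt4, and Mns1. Enkur fell by 0.59 ± 0.12 (adjusted p = 0.000771). In WT mice it read 8.84, 9.14, 8.97 and 8.43 with PBS and 8.27, 8.18, 8.46 and 8.04 after OVA, with PBS array 4 inside the OVA range. In KitWsh mice the PBS arrays read 9.26, 8.16 and 8.74 and the OVA arrays 7.95, 7.55, 8.09 and 7.73, and the groups did not overlap. Tekt2 fell by 0.45 ± 0.10 (adjusted p = 0.00183), Mns1 by 0.35 ± 0.11, Tekt4 by 0.34 ± 0.10 and Tekt1 by 0.32 ± 0.10.

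In the central apparatus, the pair of single microtubules and its projections, 1 of 4 tested genes fell. Spag17 fell by 1.09 ± 0.28 (adjusted p = 0.00562), but not in every kind of mice, as described below. It was over the filter level of 5 in 16 of 36 arrays and passed the filter through groups where it is high. Its fall, counted among the 20, is thus a description with no resolved size. Kif9, a kinesin of the central apparatus, had a difference of -0.35 ± 0.18 (adjusted p = 0.156), and Spag16 one of -0.30 ± 0.12 (adjusted p = 0.0606). Hydin, a large protein of a central-pair projection, had a difference of 0.03 ± 0.12.

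Of the radial spoke genes, whose products join the doublets to the centre, 3 of 4 fell. The spoke head gene Rsph4a fell by 0.38 ± 0.08 (adjusted p = 0.00136), Nme5 by 0.31 ± 0.07 (adjusted p = 0.00186) and Rsph1 by 0.28 ± 0.08 (adjusted p = 0.0103). Rsph9, a further spoke head gene, had a difference of -0.16 ± 0.09 (adjusted p = 0.176). Both ruler genes fell, Ccdc40 by 0.40 ± 0.13 and Ccdc39 by 0.31 ± 0.10, while Iqcg of the nexin-dynein regulatory complex did not pass (-0.29 ± 0.13, adjusted p = 0.0942). Of the pair of intraflagellar transport genes, Ift88 fell by 0.47 ± 0.10 (adjusted p = 0.00128) and Ift172 had a difference of -0.07 ± 0.06.

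Of the 8 tested dynein heavy chains, the motor subunits themselves, 4 fell. Dnah11, an outer arm chain, fell by 0.46 ± 0.10 (adjusted p = 0.00140). The inner arm chains Dnah6, Dnah1 and Dnah2 fell by 0.43 ± 0.13, 0.39 ± 0.09 and 0.30 ± 0.08. Dnah5, a further outer arm chain of airway cilia, had a difference of -0.55 ± 0.24 (adjusted p = 0.0796), and Dnah9 one of 0.01 ± 0.08. Among the remaining 7 genes 4 fell, namely Mlf1 by 0.41 ± 0.13, the kinesin gene Kif27 by 0.38 ± 0.10, the adenylate kinase gene Ak7 by 0.33 ± 0.08 and Tppp3, which binds tubulin, by 0.29 ± 0.11. Kif27 was over the filter level of 5 in 29 of 36 arrays, the others all being OVA arrays, so the size of its fall is not resolved. The call of Tppp3 held in only 7 of 35 omissions of 1 array, and with all 36 arrays its difference was 0.24 (adjusted p = 0.713). Dynlrb2, a light chain gene, and Capsl had differences of -0.06 ± 0.08 and -0.02 ± 0.09.

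Genes that encode other parts of the cilium were read from lists assembled for the same roles. Of 45 tested other axonemal genes 30 fell and 0 rose, with a median difference of -0.30. Examples were Wdr78 (-0.47 ± 0.09), Cfap206 (-0.49 ± 0.09) and Cfap54 (-0.41 ± 0.08). Of 36 genes of intraflagellar transport and the BBSome, a cargo adaptor of cilia, 14 fell and 0 rose. Bbs2 fell by 0.77 ± 0.14, Ift122 by 0.44 ± 0.08 and Ift81 by 0.43 ± 0.08. Of 10 dynein assembly factors, which fold the arms in the cytoplasm, 3 fell, among them Dnaaf4 (-0.46 ± 0.11) and Dnaaf1 (-0.40 ± 0.09). Of 11 dynein intermediate and light chain and docking genes 3 fell and 2 rose. Tubulins and their modifying enzymes went both ways, with 2 of 12 lower and 2 higher. Among 6 tested regulators of multiciliated cell formation, the 3 with the smallest adjusted p were Myb, Cep63 and Rfx1. Myb fell by 0.44 ± 0.07 (adjusted p = 0.000110) and Cep63 by 0.35 ± 0.08 (adjusted p = 0.00166), while Rfx1 rose by 0.38 ± 0.09. Over all these lists 55 of 120 tested genes fell and 5 rose, where 15.3% of all tested genes fell and 12.2% rose. These lists, too, were chosen with earlier results of these data known.

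Markers of other cells moved in the same arrays, to be read beside the 15.3% of all tested genes that fell and 12.2% that rose. All 8 tested goblet cell and mucus genes rose, with a median difference of 2.77, and none of 5 basal cell genes reached the level needed for a test. The mean level of the goblet cell list ran from 4.54 to 6.54 in PBS arrays and from 4.96 to 9.68 in OVA arrays. The lowest OVA value was that of KitWsh_MCifngR OVA array 1, below the PBS arrays of its kind (5.49 to 6.54). The other OVA arrays of these mice read 8.48 to 9.66. In these mice the Foxj1 results without the arrays against their labels rest on this array and OVA array 4. Of 9 club cell genes 2 fell and 2 rose. All 8 alveolar type 1 genes were below 0 and 4 fell, with a median of -0.19, and 5 of 6 heart muscle genes fell, with a median of -0.79. The mean level of the heart muscle list ran from 7.75 to 11.0 in PBS arrays and from 7.72 to 9.88 in OVA arrays. In the other lists the 3 genes with the smallest adjusted p were read. Sftpd (0.25), Slc34a2 (0.19) and Napsa (0.37) of alveolar type 2 cells rose, as did Tpsb2 (1.11), Cma1 (1.60) and Cpa3 (1.39) of mast cells. Elf3 (0.51) and Nkx2-1 (0.82) of general epithelium rose, and so did Cd68 (1.52) and Laptm5 (0.36) of leukocytes, while Epcam and Itgam did not pass. Kdr (-0.38) and Tek (-0.41) of endothelium fell, and Cldn5 did not pass. The part of these other cells in the fall of the cilium genes was not tested.

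The response was next read in each kind of mice. In WT mice 2 of 36 genes fell and 0 rose, where 5.35% of all tested genes fell and 3.97% rose. The 2 genes were Spag17 (-1.91 ± 0.58, adjusted p = 0.0353) and Rsph4a (-0.58 ± 0.17, adjusted p = 0.0316). Rsph4a read 8.92, 9.04, 8.94 and 8.41 with PBS and 8.27, 8.14, 8.54 and 8.07 after OVA, so PBS array 4 lay among the OVA arrays. The median over the members was -0.21 against -0.03 over all tested genes, and 29 of 36 were below 0. PBS and OVA arrays did not overlap for 5 members, all lower after OVA, where 11.9% of all tested genes were lower and 7.6% higher without overlap. Neither call held under every omission of 1 array, with 0 to 2 genes called, and 0 were called with all 36 arrays. Quantile normalisation moved the split of all calls from 461 higher and 620 lower to 644 and 526. Without the arrays that went against their labels, WT OVA array 4 among them, the 2 genes that fell were Kif27 (-0.72) and Rsph4a (-0.51). Kif27 lay under the filter level of 5 in every WT OVA array left (4.74, 4.44 and 4.84), so the size of its fall is not resolved.

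**Figure D3:**
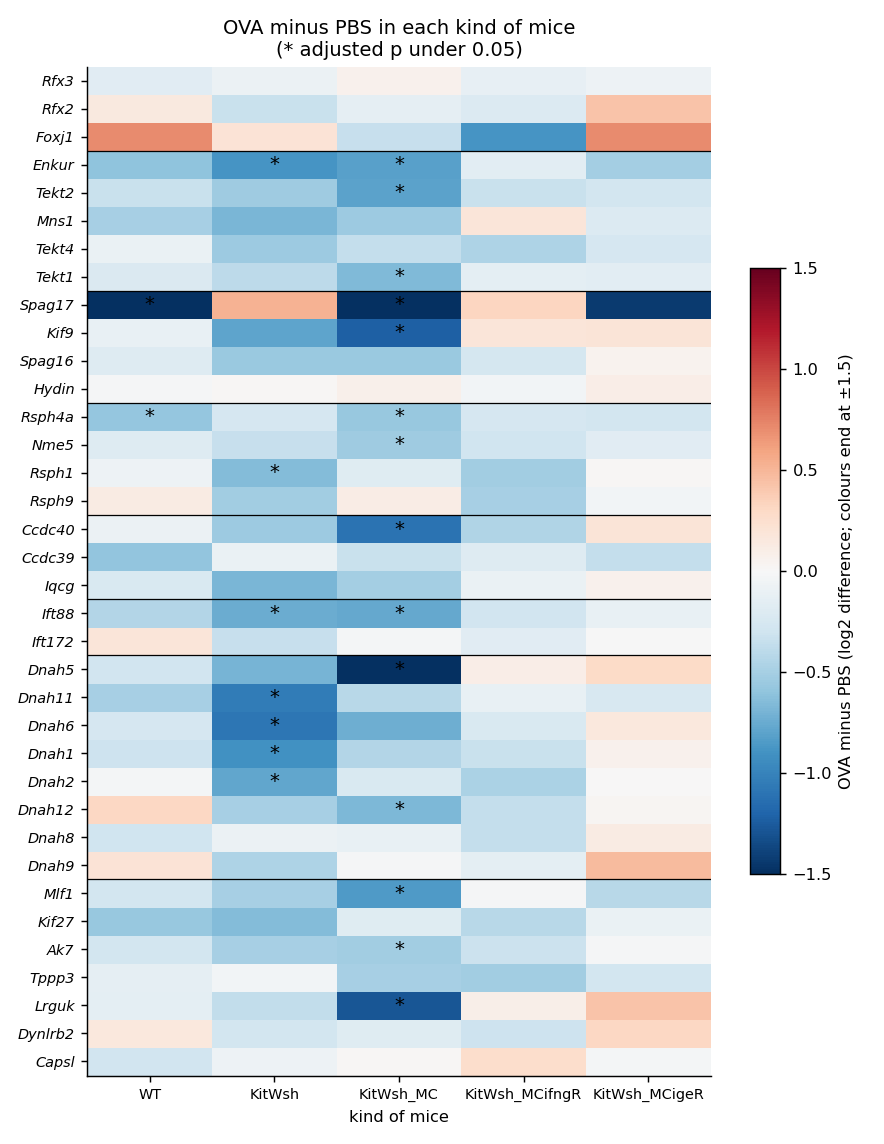
OVA minus PBS difference (log2, colour; scale ends at ±1.5) of the 36 tested genes in each kind of mice, with an asterisk at an adjusted p under 0.05. Asterisks mark 2 genes in WT, 7 in KitWsh, 14 in KitWsh_MC and 0 in KitWsh_MCifngR and KitWsh_MCigeR mice.

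In KitWsh mice, which lack mast cells, 7 of 36 genes fell and 0 rose, against 5.16% and 1.4% of all tested genes. Dynein heavy chains led the list. Dnah11 fell by 1.04 ± 0.22 (adjusted p = 0.00727), to 48.5% of its PBS level. It read 7.07, 6.88 and 7.32 with PBS and 6.13, 6.12, 6.14 and 5.79 after OVA, every OVA array lying below every PBS array. Dnah6 fell by 1.08 ± 0.28, Dnah1 by 0.91 ± 0.21 and Dnah2 by 0.78 ± 0.19, each without overlap of the groups. Enkur, Ift88 and Rsph1 fell by 0.89 ± 0.26, 0.75 ± 0.22 and 0.65 ± 0.18. Groups did not overlap for 8 members, all lower, where 18% of all tested genes were lower and 7.53% higher without overlap. The members' median was -0.50 against -0.10 over all tested genes. After each array was centred on its own median, 4 genes fell, all of them dynein heavy chains (Dnah6, Dnah11, Dnah1 and Dnah2), and the split of all calls went from 162 higher and 598 lower to 217 and 255. None of the 7 calls held under every omission of 1 array. The count was 0 without PBS array 3, 2 without PBS array 1, OVA array 2 or OVA array 4, and 10 without OVA array 1 or PBS array 2, whose member mean (7.34) was below the other PBS arrays (7.88 and 7.94). With all 36 arrays 1 gene fell.

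In KitWsh_MC mice 14 of 36 genes fell and 0 rose, where 9.8% of all tested genes fell and 10.7% rose. Spag17 fell by 2.93 ± 0.62 (adjusted p = 0.00180). In the OVA arrays Spag17, Dnah5, Kif9 and Lrguk each lay under the filter level of 5 in 3 of 4 arrays, so the size of their fall is not resolved. Dnah5 fell by 2.16 ± 0.52 (adjusted p = 0.00478). It read 5.26, 6.77 and 7.07 with PBS and 3.35, 3.24, 5.64 and 4.60 after OVA, so that PBS array 1 lay inside the OVA range. Lrguk, named for its guanylate kinase domain, fell by 1.28 ± 0.31 and read 5.63, 5.46 and 5.58 with PBS and 4.51, 3.94, 3.09 and 5.57 after OVA. Kif9 fell by 1.22 ± 0.41, reading 5.30, 5.77 and 6.10 with PBS and 4.83, 3.18, 3.94 and 6.07 after OVA. In both genes OVA array 4 lay at the PBS level and the other OVA arrays lay below it. Ccdc40 fell by 1.11 ± 0.29 and read 7.58, 7.35 and 7.54 with PBS and 6.68, 5.06, 6.65 and 7.14 after OVA, without overlap.

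The other 9 genes that fell in KitWsh_MC mice lost between 0.52 (Ak7) and 0.85 (Mlf1), and were Ak7, Rsph4a, Nme5, Tekt1, Dnah12, Ift88, Tekt2, Enkur and Mlf1. Groups did not overlap for 8 members, all lower, where 10% of all tested genes were lower and 12.6% higher without overlap. The members' median was -0.50 against 0.01 over all tested genes. OVA array 2, with the beta-actin difference of 6.23, was the lowest of its group in Enkur, Kif9, Ccdc40, Ift88 and Spag17, and without it 5 genes fell, namely Spag17 (-2.23), Dnah5 (-1.84), Lrguk (-1.17), Ccdc40 (-0.67) and Nme5 (-0.50). Without OVA array 4 there were 19, and without PBS array 1 or PBS array 3 there were 7. Spag17, Dnah5, Lrguk and Ccdc40 fell under every omission of 1 array. With all 36 arrays Spag17, Dnah5 and Lrguk fell.

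**Figure D4:**
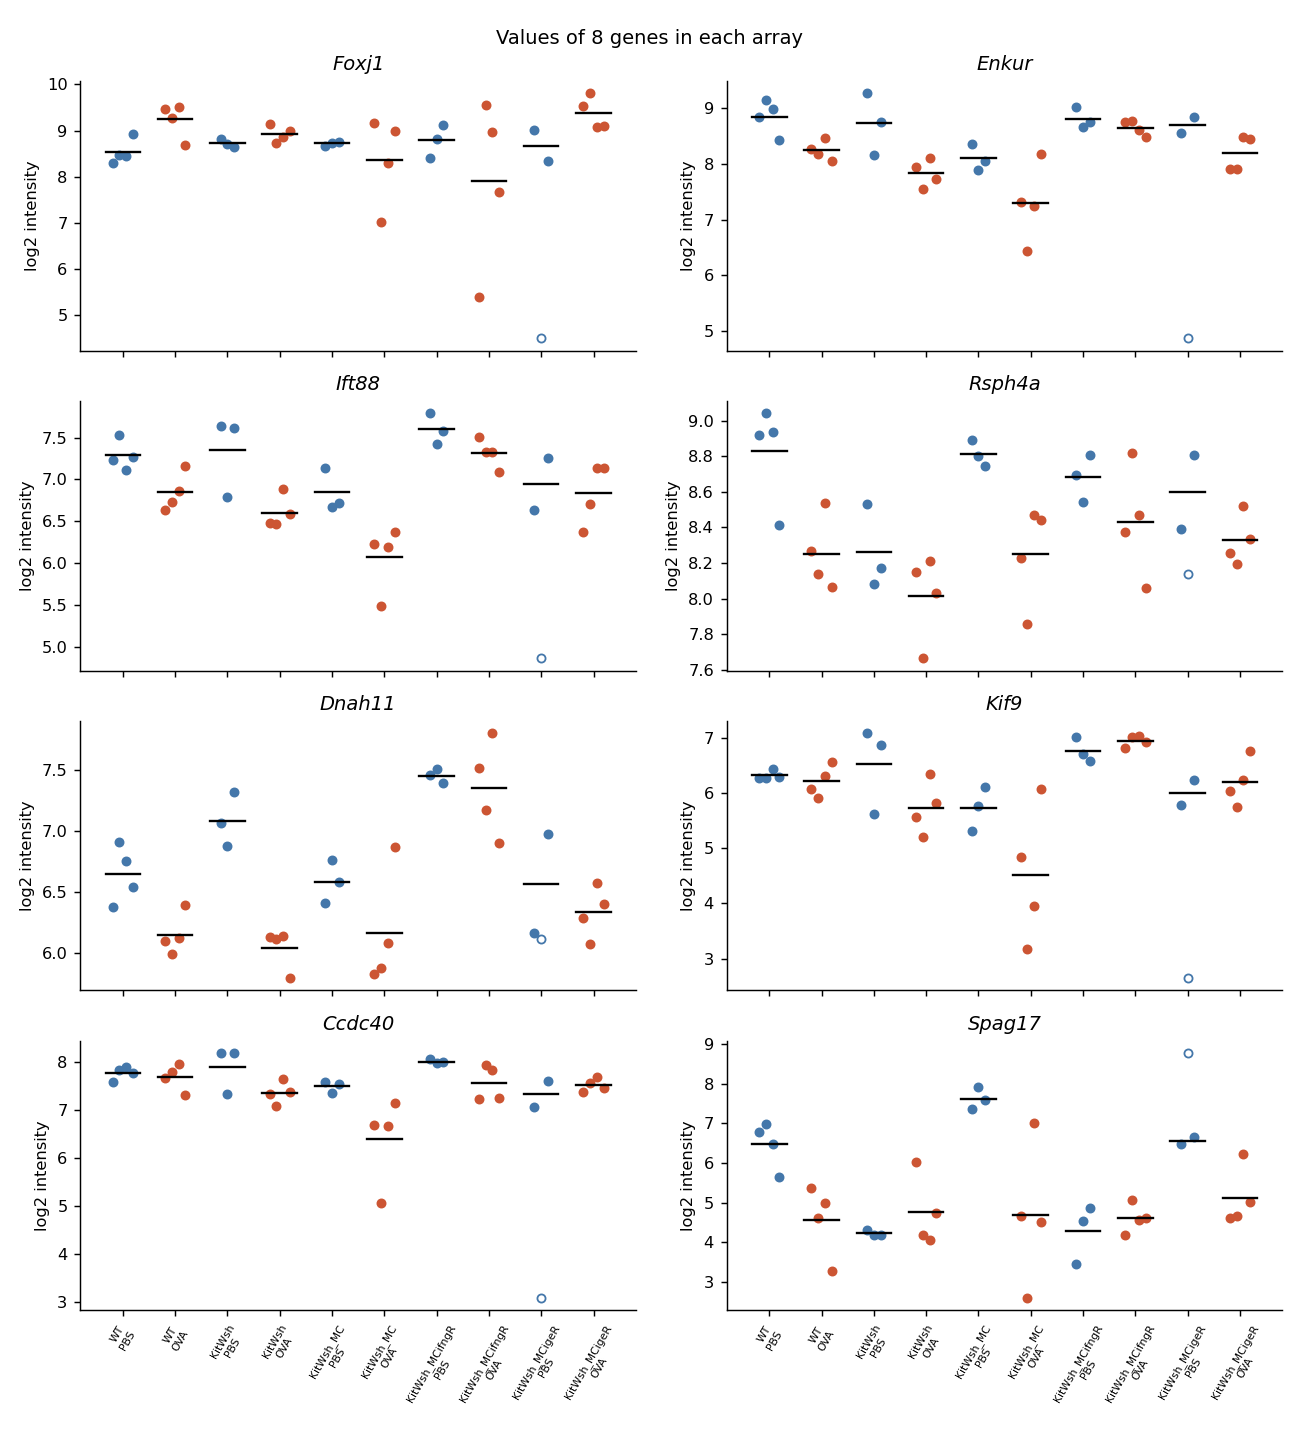
Log2 intensity of 8 genes in each array (points; blue PBS, orange OVA), with group means as bars and the left-out array as an open circle; each panel has its own vertical scale. In KitWsh_MC mice the OVA arrays of Kif9 run from 3.18 to 6.07 and those of KitWsh_MCifngR mice from 6.82 to 7.03.

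In KitWsh_MCifngR mice 0 of 36 genes were called, where 0.345% of all tested genes fell and 0.431% rose. Their median was -0.24 against 0.00 over all tested genes, 30 of 36 were below 0, and 4 had an unadjusted p under 0.05, all lower. For 8 members the groups did not overlap, all lower, where 5.37% of all tested genes were lower and 8.1% higher without overlap. Rsph1 had the smallest p and read 10.2, 9.92 and 10.0 with PBS and 9.31, 9.91, 9.65 and 9.23 after OVA, the groups not overlapping (-0.52 ± 0.18, adjusted p = 0.20). Without the arrays that went against their labels, which leaves 2 of 4 OVA arrays, 3 genes fell (Foxj1, Tppp3 and Rsph1). The arrays left, 1 and 4, had the high GAPDH differences given above. In KitWsh_MCigeR mice 0 of 36 were called, and 0% of all tested genes fell or rose. At an unadjusted p under 0.05, 0 members were lower and 1 was higher, and 283 genes of all were lower and 454 higher. Groups did not overlap for 4 members that were lower (Tekt2, Enkur, Spag17 and Mlf1) and 4 that were higher (Foxj1, Dynlrb2, Lrguk and Dnah9), where 8.23% and 9.16% of all tested genes were so. The median of the members was -0.01, and this comparison had only 2 PBS arrays. With all 36 arrays Spag17 fell (-2.17) and Dnah9, Dynlrb2, Ift172, Ccdc40 and Foxj1 rose there, with the PBS array of low correlation included.

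Whether the response itself differed between kinds was tested as a difference of differences. Between KitWsh and WT mice 0 of 36 genes differed, where 0.129% of all genes were called lower and 0.0517% higher (15 and 6 genes, and 13 and 11 after centring). At an unadjusted p under 0.05, 8 members were lower and 1 higher. Between KitWsh_MC and KitWsh mice Spag17 alone differed (-3.44 ± 0.88, adjusted p = 0.0216), where 1.35% were lower and 4.17% higher. Centring moved this split from 484 higher and 157 lower to 269 and 243, and without KitWsh_MC PBS array 2 or KitWsh PBS array 2 the call was lost. Between KitWsh_MCifngR and KitWsh_MC mice 0 of 36 differed, where 0.604% were lower and 0.879% higher (70 and 102 genes, and 133 and 95 after quantile normalisation), and 1 member was lower and 5 higher at an unadjusted p under 0.05. In the last of these Spag17 differed by 3.25 ± 0.88 (adjusted p = 0.0547), and after centring by 3.28 ± 0.88 (adjusted p = 0.0472). In both comparisons with KitWsh_MC mice, Spag17 lay under the filter level of 5 in 3 arrays of every group except KitWsh_MC PBS. Its differences of response are thus a description with no resolved size. The response of KitWsh_MC mice was not tested against that of WT or KitWsh_MCigeR mice.

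The level after OVA was compared between the engrafted groups next. In OVA lungs of KitWsh_MCifngR mice 23 of 36 genes were higher than in those of KitWsh_MC mice and 0 were lower, where 29.2% of all tested genes were higher and 7.47% lower. Kif9 was higher (log2 difference 2.44 ± 0.38, adjusted p = 4.15e-05). It read 6.82, 7.01, 7.03 and 6.92 in KitWsh_MCifngR arrays and 4.83, 3.18, 3.94 and 6.07 in KitWsh_MC arrays, without overlap. Lrguk was higher too (1.95 ± 0.28), reading 6.39, 5.87, 6.13 and 6.51 against 4.51, 3.94, 3.09 and 5.57. Both genes lay under 5 in 3 of 4 KitWsh_MC arrays, so no fold is given. Dnah1 was 2.61-fold higher (1.39 ± 0.19) and Enkur 2.56-fold higher (1.36 ± 0.25). All 5 microtubule lumen genes were higher, by 0.92 to 1.36, and so were 6 of 8 dynein heavy chains, both intraflagellar transport genes, and Ccdc40 and Iqcg. Hydin was 0.61 ± 0.24 higher. The 13 that were not called held the 3 transcription factors, Spag17, Spag16, Rsph1, Rsph4a, Rsph9, Ccdc39, Dnah5, Dnah8, Kif27 and Tppp3. For 20 members the groups did not overlap, all higher, where 17.9% of all tested genes were higher and 2.7% lower without overlap.

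**Figure D5:**
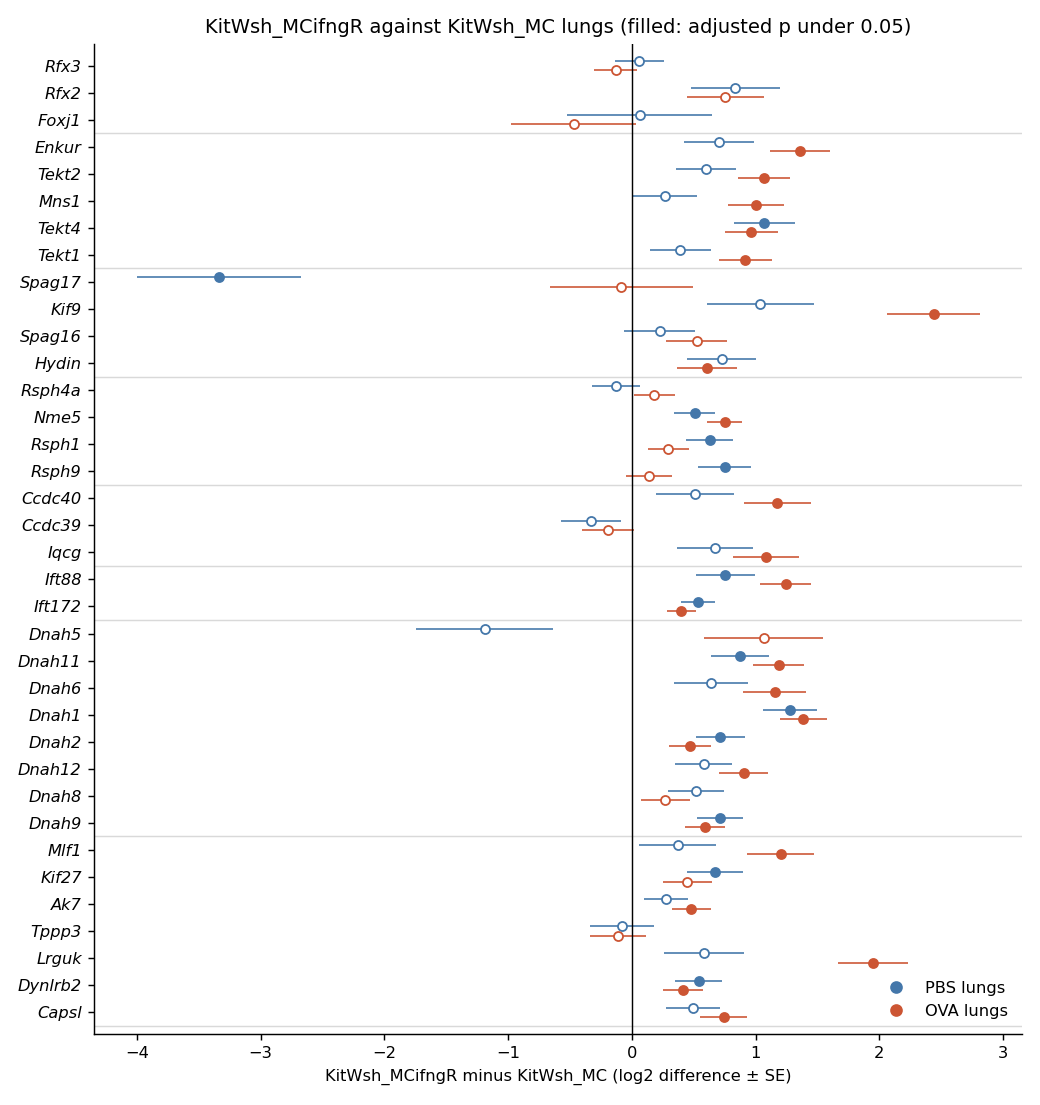
Difference between KitWsh_MCifngR and KitWsh_MC lungs (log2, points) ± standard error for the 36 tested genes, in PBS lungs (blue) and OVA lungs (orange); filled points have an adjusted p under 0.05. Spag17 lies at -3.34 in PBS lungs, and Kif9 (2.44) and Lrguk (1.95) lie farthest to the right in OVA lungs.

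Many genes of all kinds were higher in this comparison, and the median over all tested genes was 0.18 against 0.75 for the members. Centring each array on its median moved the former to 0.00 and the latter to 0.56, and changed the split of all calls from 3390 higher and 867 lower to 2035 and 1687; 17 members were then higher. Without the arrays that went against their labels 18 were higher and Foxj1 was lower (-1.83 ± 0.45, adjusted p = 0.00334). That fit keeps only KitWsh_MCifngR OVA arrays 1 and 4, those with the high GAPDH differences. The count ran from 20 to 26 under omission of 1 array, and 19 of the 23 were higher in every such fit, also without KitWsh_MC OVA array 2. With all 36 arrays 9 were higher. Other cilium genes were higher too, with 35 of 45 other axonemal and 25 of 36 intraflagellar transport and BBSome genes. So were 5 of 9 club cell genes, among them Cyp2f2 (0.90 ± 0.18), 4 of 8 alveolar type 1, 4 of 7 endothelial and 2 of 6 heart muscle genes, while 1 of 8 goblet cell genes was lower. Over all tested genes 29.2% were higher and 7.47% lower here. The part of these other genes in the difference was not tested.

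Part of this gap was already present without OVA. In PBS lungs of KitWsh_MCifngR mice 12 of 36 genes were higher than in those of KitWsh_MC mice and 1 was lower, where 12% of all tested genes were higher and 3.28% lower. Dnah1 stood first among the higher genes (1.28 ± 0.22, adjusted p = 0.000736) and read 7.44, 6.83 and 7.07 against 5.76, 5.82 and 5.92. Tekt4 was 1.07 ± 0.24 higher, reading 7.74, 7.44 and 7.62 against 6.32, 6.51 and 6.75. Both genes were separated without overlap, as were 26 members that were higher and 2 that were lower (Spag17 and Ccdc39), where 39.3% of all tested genes were higher and 9.99% lower without overlap. The others were Dnah11, Rsph9, Ift88, Dnah9, Dnah2, Kif27, Rsph1, Dynlrb2, Ift172 and Nme5, by 0.51 to 0.87. After centring, Dnah1 and Tekt4 were higher and Spag17 was lower, and the median over all tested genes went from 0.23 to 0.02 and the split of all calls from 1387 higher and 380 lower to 355 and 618, so the count of higher genes differed with the scaling. Under omission of 1 array between 6 and 11 members were called, 6 without KitWsh_MC PBS array 3 or KitWsh_MCifngR PBS array 1 or 3. The OVA and PBS comparisons use different arrays.

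OVA lungs of KitWsh_MCigeR mice also had higher levels than those of KitWsh_MC mice, in 13 of 36 genes, with 0 lower, where 13.4% of all tested genes were higher and 7.6% lower. This comparison shares the KitWsh_MC OVA arrays with the one before. Kif9 was higher by 1.69 ± 0.38, reading 6.03, 5.74, 6.23 and 6.76, Lrguk by 1.37 ± 0.28 and Ccdc40 by 1.14 ± 0.27. Kif9 and Lrguk lay under 5 in 3 of 4 KitWsh_MC OVA arrays, so the size of their differences is not resolved. The members' median was 0.54 against 0.06. For 4 members (Tekt2, Spag16, Ccdc40 and Mlf1) the groups did not overlap, all higher, where 8.76% of all tested genes were higher and 7.33% lower without overlap. Centring left 11 genes and moved the split of all calls from 1553 higher and 881 lower to 1284 and 1211. Without KitWsh_MC OVA array 2, 3 genes were higher, without OVA array 4 there were 19, and with the beta-actin difference as a covariate 2.

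KitWsh_MC lungs after OVA differed from KitWsh lungs after OVA in 7 members, 6 lower and 1 higher, where 16.6% of all tested genes were lower and 14.9% higher. Lrguk (-1.46 ± 0.28), Kif9 (-1.23 ± 0.38), Ccdc40 (-0.97 ± 0.27), Dnah12 (-0.66 ± 0.20), Tekt2 (-0.54 ± 0.21) and Ift88 (-0.53 ± 0.21) were lower and Rsph9 was higher (0.65 ± 0.19). The size is not resolved for Lrguk and Kif9, which lay under 5 in 3 of 4 KitWsh_MC OVA arrays. Of the 36 members only Ift88 was separated without overlap, where 8.99% of all tested genes were lower and 9.19% higher without overlap. Quantile normalisation moved the split of all calls from 1729 higher and 1926 lower to 2154 and 1602. Without KitWsh_MC OVA array 2 there was 1 call, and with the beta-actin covariate there were 2. Between KitWsh and WT mice after OVA 0 of 36 members differed, where 0.0862% of all tested genes were lower and 0.129% higher, and 6 members were lower and 0 higher at an unadjusted p under 0.05. Capsl and Dnah12 were lower without overlap, where 2.22% of all tested genes were lower and 3.03% higher without overlap. Quantile normalisation moved the split of all calls from 15 higher and 10 lower to 14 and 15. Without the arrays that went against their labels Spag16 (-1.09) and Rsph1 (-0.61) were lower there.

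In PBS lungs, KitWsh mice differed from WT mice in Spag17 (-2.23 ± 0.62) and Capsl (-0.67 ± 0.20), both lower, where 2.29% of all tested genes were lower and 5.63% higher. Centring moved that split from 653 higher and 266 lower to 368 and 365. Without overlap Spag17 and Ccdc39 were lower and Rsph9 was higher, where 10.2% of all tested genes were lower and 20.6% higher. KitWsh_MC mice differed from KitWsh mice in Spag17 and Ccdc39 (0.73 ± 0.24), which were higher, and Dnah1 (-0.69 ± 0.22), which was lower, where 8.63% were lower and 3.35% higher. Centring moved that split from 388 higher and 1001 lower to 598 and 507, and the median over all tested genes from -0.14 to 0.00. All 3 member genes were separated without overlap, among 5 members lower and 3 higher in this way, where 30.6% and 11.7% of all tested genes were. The count was 7 without KitWsh PBS array 2 and 1 without any other array of the comparison. In the first of these comparisons it ran from 0 to 5, the highest being without WT PBS array 4.

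Spag17 followed a pattern of its own. In PBS lungs it read 6.78, 6.98, 6.49 and 5.64 in WT, 4.32, 4.20 and 4.20 in KitWsh, and 7.36, 7.93 and 7.59 in KitWsh_MC mice. In KitWsh_MCifngR mice it read 3.45, 4.54 and 4.86, and in KitWsh_MCigeR mice 6.47 and 6.65. KitWsh and KitWsh_MCifngR mice thus lay low, and WT, KitWsh_MC and KitWsh_MCigeR mice lay higher, with no overlap between the former and the latter. After OVA the values were 5.37, 4.60, 4.98 and 3.28 in WT, 6.02, 4.20, 4.07 and 4.75 in KitWsh, and 4.67, 2.59, 7.00 and 4.52 in KitWsh_MC mice. They were 4.20, 5.07, 4.57 and 4.60 in KitWsh_MCifngR and 4.61, 4.67, 6.23 and 5.01 in KitWsh_MCigeR mice, so the OVA groups overlapped. The fit gave a difference of 3.39 ± 0.66 between KitWsh_MC and KitWsh PBS lungs and of -3.34 ± 0.66 between KitWsh_MCifngR and KitWsh_MC PBS lungs. All 3 arrays of KitWsh and all 3 of KitWsh_MCifngR mice lay under the filter level of 5 here. The gene passed the filter through groups where it is high, so these differences and the calls on them are a description with no resolved size. The same holds after OVA in WT and in KitWsh_MC mice, where 3 of 4 arrays lay under 5, and for the mean response of the gene. The left-out array gave the highest value of all, 8.78. A second probe set of Spag17 did not follow the pattern of PBS lungs. There it averaged 5.15 ± 0.49 (SD, n = 4) in WT, 4.67 ± 0.31 (n = 3) in KitWsh and 4.60 ± 0.41 (n = 3) in KitWsh_MC mice. It averaged 4.70 ± 0.82 (n = 3) in KitWsh_MCifngR and 4.46 ± 0.54 (n = 2) in KitWsh_MCigeR mice. After OVA its means were 4.30 in WT, 4.43 in KitWsh, 3.98 in KitWsh_MC and 4.46 in KitWsh_MCifngR mice, each lower than with PBS. In KitWsh_MCigeR mice the OVA mean was higher (4.70). All of its OVA means lay under 5.

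Members were also compared with each other among arrays of the same group. After the group means were subtracted, the median Pearson correlation over the 630 pairs of tested members was 0.32 across 35 arrays, and 82.2% of the pairs were above 0. Over all pairs of the 11599 tested genes the median was 0.04, and 54.7% were above 0. All genes of an array share its RNA and hybridisation, and the values are a description. Enkur (0.89), Ccdc40 (0.85), Kif9 (0.81), Tekt1 (0.81) and Nme5 (0.79) followed the mean of the other members most closely, and 22 members had a correlation over 0.5. Rsph9 (-0.20), Dnah8 (-0.18), Rfx3 (-0.03) and Tppp3 (0.13) were under 0.2, and Spag17 (0.21) and Foxj1 (0.26) were low as well. Outside the members, the 10 tested genes with the most similar pattern across the 35 arrays were Iqca (0.91), Ttc29 (0.91), Efcab1 (0.91), Maats1 (0.87), Ccdc162 (0.86), Fam183b (0.85), Cdhr3 (0.83), 1700028P14Rik (0.82), Cfap206 (0.82) and Cfap69 (0.82). Of these, 4 stood in the list of other axonemal genes.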

How the data were processed

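RNA of 36 mouse lung samples was measured on Affymetrix arrays. The authors deposited log2 intensities per probe set, normalised with GCRMA per the submitters' processing notes. The GCRMA version was not given in the sources used here. The deposited table held 45101 probe sets, of which 34958 named 1 gene symbol, 932 several and 9211 none, and the probe set with the highest mean stood for each of 18193 genes. The 11599 genes that passed a log2 value of 5 on 3 or more arrays were fitted with limma 3.58.1 in R 4.3.3, using 1 mean for each of 10 groups over 35 arrays, which left 25 residual degrees of freedom. Contrasts gave 16 comparisons. P-values were adjusted over all 11599 genes by the Benjamini-Hochberg method, and genes under 0.05 were called. The fit was tested on simulated data. Groups came from the titles and characteristics of the samples. Alternatives changed the arrays, scaling, filter, probe set rule and variance model, and 1 array was left out at a time. Arrays of the fit that went against their labels were kept, and KitWsh_MCigeR PBS array 2 was left out for its low correlation. The members and the gene lists were chosen with earlier results of these data known. In each comparison the members that were called could be named, and where over 8 were called, the extremes and those that the roles turn on; of the other lists at most the 3 genes with the smallest adjusted p were named per comparison.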

Additional observations from a re-analysis of the deposited data

Results flagged for a closer look

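Single arrays stood apart from the rest of their group in 5 of 96 groups of values, where the limit used is passed by chance in about 1 of 20. Tekt2 was highest in KitWsh_MCigeR OVA array 2 (6.27, others 6.04 to 6.07). Kif9 was highest in WT PBS array 3 (6.43, others 6.27 to 6.28). Nme5 was highest in KitWsh OVA array 3 (8.73, others 8.49 to 8.53). Ak7 was highest in KitWsh_MC OVA array 4 (9.98, others 9.32 to 9.42). Dnah11 was lowest in KitWsh OVA array 4 (5.79, others 6.12 to 6.14).

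The OVA response of Spag17 differed between KitWsh_MC and KitWsh mice by -3.44 on the log2 scale, a difference tested as an interaction in limma. Spag17 lay under the filter level of 5 in 3 arrays of every group compared except KitWsh_MC PBS. The difference is a description with no resolved size. A second probe set of the gene did not exceed a log2 value of 5.66 in any array of the fit.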

How the results depend on the processing

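Counts below are of members called, as in the report. The mean response had 18 to 27 calls under every alternative that was run except the fit with all 36 arrays and the omission of single arrays. With all 36 arrays the counts were 7 for the mean response, 0 in WT, 1 in KitWsh, 3 in KitWsh_MC and 6 in KitWsh_MCigeR mice, 0 for the difference of KitWsh_MC and KitWsh responses, 1 (KitWsh_MC against KitWsh), 9 (KitWsh_MCifngR against KitWsh_MC) and 1 (KitWsh_MCigeR against KitWsh_MC) in OVA lungs, and 0, 1 and 2 in the PBS comparisons of KitWsh with WT, KitWsh_MC with KitWsh and KitWsh_MCifngR with KitWsh_MC. With array weights they were 12 in WT, 26 in KitWsh and 2 in KitWsh_MCifngR mice, 15, 7 and 4 for the differences of response, 6 for KitWsh against WT and 6 for KitWsh_MCigeR against KitWsh_MC in OVA lungs, and 15, 16 and 27 in PBS lungs. Without the 3 arrays against their labels they were 3 in KitWsh_MCifngR mice and 2 for KitWsh against WT in OVA lungs. Leaving out KitWsh_MC OVA array 2 with these 3, a choice made after seeing the data, gave 6 in WT, 12 in KitWsh, 6 in KitWsh_MC and 4 in KitWsh_MCifngR mice, 1 for the difference of KitWsh_MCifngR and KitWsh_MC responses, 2, 3 and 5 in OVA lungs (KitWsh against WT, KitWsh_MC against KitWsh, KitWsh_MCigeR against KitWsh_MC) and 5 for KitWsh_MC against KitWsh in PBS lungs. Repeated quantile normalisation gave 1 for the difference of KitWsh_MCifngR and KitWsh_MC responses, 8 for KitWsh_MCigeR against KitWsh_MC in OVA lungs and 4 for KitWsh against WT in PBS lungs. Centring gave 4 in KitWsh mice, 1 for that difference and 3 for KitWsh_MCifngR against KitWsh_MC in PBS lungs. Without a filter there was 1 in WT mice, 0 for KitWsh against WT and 1 for KitWsh_MC against KitWsh in PBS lungs. The mean of probe sets gave 4 in KitWsh mice, and a trended prior gave 1 for the difference of KitWsh_MCifngR and KitWsh_MC responses. The beta-actin covariate gave 11 in KitWsh mice, 2 and 2 in OVA lungs (KitWsh_MC against KitWsh, KitWsh_MCigeR against KitWsh_MC), and 1 and 21 in PBS lungs (KitWsh against WT, KitWsh_MCifngR against KitWsh_MC). The cause of these shifts was not tested.

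Leaving out 1 array at a time gave 0 to 2 in WT, 0 to 10 in KitWsh, 5 to 19 in KitWsh_MC, 0 to 0 in KitWsh_MCifngR and KitWsh_MCigeR mice and 13 to 24 for the mean response. The differences of response gave 0 to 1 (KitWsh and WT), 0 to 2 (KitWsh_MC and KitWsh) and 0 to 3 (KitWsh_MCifngR and KitWsh_MC). OVA lungs gave 0 to 1, 1 to 11, 20 to 26 and 3 to 19, and PBS lungs 0 to 5, 1 to 7 and 6 to 11, in the order of the comparisons above. Where this left 1 array in a group, that array was assumed to vary like the other groups. Of 574 alternatives of 22 results on named members, 520 kept their direction and side of the threshold, 54 lost the call and 0 turned direction. Over all 105 calls of members and their 2477 alternatives 1 turned, that of Tppp3 in the mean response with all 36 arrays (0.24). No paired analysis was possible because the titles number the samples in 1 run and give the groups no shared replicate numbers. Members near the floor, Spag6 and Dnah17 above all, are limited by signal over background.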
